A study of Mus musculus with 6 samples.

Results

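The 10 scavenger receptor genes Cd163, Mrc1, Msr1, Marco, Cd36, Stab1, Scarb1, Scarb2, Cd68 and Olr1 were examined for chromatin accessibility in macrophages of a mouse glioma. Their 78 peaks were chosen by symbol, as every distinct peak that the authors' deposited table assigns to one of the 10 genes, out of 92843 annotated peaks of 18755 genes. Accessibility was measured by ATAC-seq, in which the Tn5 transposase inserts sequencing adapters into open chromatin. The cells came from orthotopic brain tumours of SB28, an isogenic mouse glioma line, in animals labelled as WT genotype, with no age given and no further agent named. Both groups were sorted for F4/80 and CD11b, without LY6G and with LY6C low or absent. Microglia (MG), brain-resident macrophages, had low CD45 and low or absent CD49d, and bone marrow derived macrophages (BMDM) were CD45+ with high CD49d. Each group held 3 libraries. Whether the libraries of a group came from separate or pooled animals is not stated, and p-values therefore reflect the variation among these 6 libraries alone, which could be technical.

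Scavenger receptors are surface and endosomal proteins of macrophages that bind modified lipoproteins, haemoglobin complexes, glycans, apoptotic material and microbes, and carry them into the endosome and lysosome. Some of them, such as Cd68, serve as general macrophage markers, while Cd163 and Mrc1 are often used to mark macrophages of tissue borders and of tumours. In ATAC-seq, open chromatin at a start site or at a more distant element is read as accessibility of the regulatory DNA and is not a measure of transcript or protein.

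The bases before the start of 6 of the genes are shown here because their base composition and peaks differ. Each run holds the 250 bases before the RefSeq start (GRCm38.p6, the assembly also named mm10), written 5′ to 3′ on the strand of the gene. Capitals mark matches to the motifs searched. The letters searched on both strands were TGANTCA for AP-1, AGGAAGT for the factor PU.1, TTGCNNAA for the C/EBP family, CACGTG for the E-box, TATAAA for the TATA box, and the CCAAT box as CCAAT, and no matches overlapped in these runs. RefSeq sequences were at hand for 8 of the 10 genes.
Cd68, chr11:69666171-69666420, minus strand: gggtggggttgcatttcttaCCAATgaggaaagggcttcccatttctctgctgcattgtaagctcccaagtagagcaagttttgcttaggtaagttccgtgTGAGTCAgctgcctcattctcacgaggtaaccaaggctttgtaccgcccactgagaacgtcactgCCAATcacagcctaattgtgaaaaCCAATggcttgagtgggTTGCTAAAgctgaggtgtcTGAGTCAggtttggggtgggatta
Olr1, chr6:129507166-129507415, minus strand: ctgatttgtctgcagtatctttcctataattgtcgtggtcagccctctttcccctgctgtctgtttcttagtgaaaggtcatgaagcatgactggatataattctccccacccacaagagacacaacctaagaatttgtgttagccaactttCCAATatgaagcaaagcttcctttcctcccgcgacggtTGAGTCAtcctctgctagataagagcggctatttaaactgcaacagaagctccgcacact
Scarb2, chr5:92505658-92505907, minus strand: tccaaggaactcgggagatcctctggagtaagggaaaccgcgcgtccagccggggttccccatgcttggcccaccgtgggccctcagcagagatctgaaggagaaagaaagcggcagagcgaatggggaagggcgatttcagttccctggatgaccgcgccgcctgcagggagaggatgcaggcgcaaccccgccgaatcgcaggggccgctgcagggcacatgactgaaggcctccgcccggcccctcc
Mrc1, chr2:14229164-14229413, plus strand: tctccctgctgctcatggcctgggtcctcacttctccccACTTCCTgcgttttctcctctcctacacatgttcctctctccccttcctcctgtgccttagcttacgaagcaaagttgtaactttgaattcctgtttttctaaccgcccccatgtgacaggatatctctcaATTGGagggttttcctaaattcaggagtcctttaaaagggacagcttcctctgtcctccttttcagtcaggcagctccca
Cd163, chr6:124304401-124304650, plus strand: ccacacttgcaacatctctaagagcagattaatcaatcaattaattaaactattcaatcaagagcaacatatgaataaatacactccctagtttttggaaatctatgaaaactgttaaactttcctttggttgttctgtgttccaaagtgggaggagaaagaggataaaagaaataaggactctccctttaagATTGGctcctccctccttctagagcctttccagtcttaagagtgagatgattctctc
Cd36, chr5:17835897-17836146, minus strand: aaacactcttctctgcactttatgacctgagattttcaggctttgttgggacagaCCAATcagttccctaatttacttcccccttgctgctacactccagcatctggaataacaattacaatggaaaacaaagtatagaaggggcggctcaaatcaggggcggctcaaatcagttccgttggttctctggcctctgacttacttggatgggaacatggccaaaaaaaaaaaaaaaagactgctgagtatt

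The 3 runs of Cd68, Olr1 and Scarb2 lay under a peak in all 6 deposited peak lists. The Mrc1 run lay under a peak in 3 lists. The runs of Cd163, Cd36 and Marco had no peak in the table or in any list. Scarb2 held 19 CpG dinucleotides at 65.6% GC, whereas Cd163 held 0 at 36.8% GC. Cd68, Olr1, Mrc1 and Cd36 held 4, 6, 3 and 3 CpG, against a median of 6 and of 52.4% GC over 32851 mouse promoters of this length. Of those promoters 6.75% held the AP-1 letters, 9.56% the C/EBP letters, 7.69% the PU.1 letters and 33.8% CCAAT. Cd68 matched AP-1 at -149 to -143 and again at -24 to -18, C/EBP at -43 to -36 and CCAAT at 3 places, counting from -1 at the base before the start. Olr1 matched AP-1 at -60 to -54, and Mrc1 matched PU.1 at -211 to -205. Scarb2 and Marco matched none of the 6 motifs, which says only that these letters are not in this window.

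Reads in peaks numbered from 4913267 (BMDM 3) to 23608150 (MG 2), and the median peak held 20 to 90 reads. A count of 3 reads corresponded to 1.64 (MG 2) to 5.95 (BMDM 1) normalized counts, which covers counting error only. MG 1 stood apart from MG 2. It correlated across peaks at 0.766 with MG 2, at 0.896 with MG 3 and at 0.851 to 0.867 with the BMDM libraries. MG 2 correlated at 0.935 with MG 3 and at 0.713 to 0.798 with the BMDM libraries. In the marker lists, 3 of 10 microglial genes (Sall1, Sparc and Olfml3) were higher in MG. In BMDM, 6 of 9 genes of bone marrow macrophages were higher, so both sorts carried part of their defining markers. Of 10 neural, glial and tumour genes 5 were higher in MG, with a summed level of 6150, 12431 and 8145 normalized counts in MG 1, 2 and 3, against 4634 to 5619 in BMDM. Of 9 border associated macrophage genes 2 were higher in BMDM (F13a1 and Clec4n), with sums of 1630 to 2022 in MG and 1775 to 3473 in BMDM. At an unadjusted p under 0.05 there were 4 of these higher in BMDM and 1 (Cbr2) in MG. Of the neutrophil genes 1 of 7 (Ly6g) was called higher in BMDM. The list had 5 at an unadjusted p under 0.05 higher in BMDM, and its median lay 1.23 above the median gene. Of the endothelial genes 1 of 9 (Cldn5) was higher in MG. For dendritic and lymphoid genes limma and voom called 0 of 8 and 0 of 9, with 2 and 3 at an unadjusted p under 0.05. Over all genes 1.83% were called higher in BMDM and 2.94% in MG. Calls are limma tests across all features with a Benjamini-Hochberg adjusted p under 0.05. Differences are log2(normalized count + 1), BMDM minus MG, relative to the median of all features, which lay at -0.14 for peaks, -0.27 for genes and -0.31 for promoters. The p-values are those of the unshifted difference. Library totals moved the median gene to -0.08 and cyclic loess to -0.03.

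Summed over all peaks of a gene, Cd163 had the largest relative difference of the 10, and it was the only gene called. Its level was 106, 116 and 85.5 normalized counts in MG 1, 2 and 3, against 254, 269 and 174 in BMDM 1, 2 and 3. The groups did not overlap. Cd36 and Olr1 lay about as far from the median gene as each other, and Scarb1 lay furthest to the side of MG. In all, limma called 1 of the 10 genes to the side of BMDM and 0 to that of MG, against 1.83% and 2.94% of 18497 genes tested. At an unadjusted p under 0.05 limma gave 3 genes to the side of BMDM and 0 to that of MG, against 6.29% and 15.3% of all genes, and voom called 0 in either direction. The median difference of the 10 genes was 0.50, with 8 of them above the median gene, against 50.0% of all genes, and the number above was also 8 with library totals and with loess. Cd163 and Scarb1 were the genes whose groups did not overlap, 1 in each direction, against 7.0% of all genes higher in BMDM and 21.3% higher in MG.

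**Figure D1:**
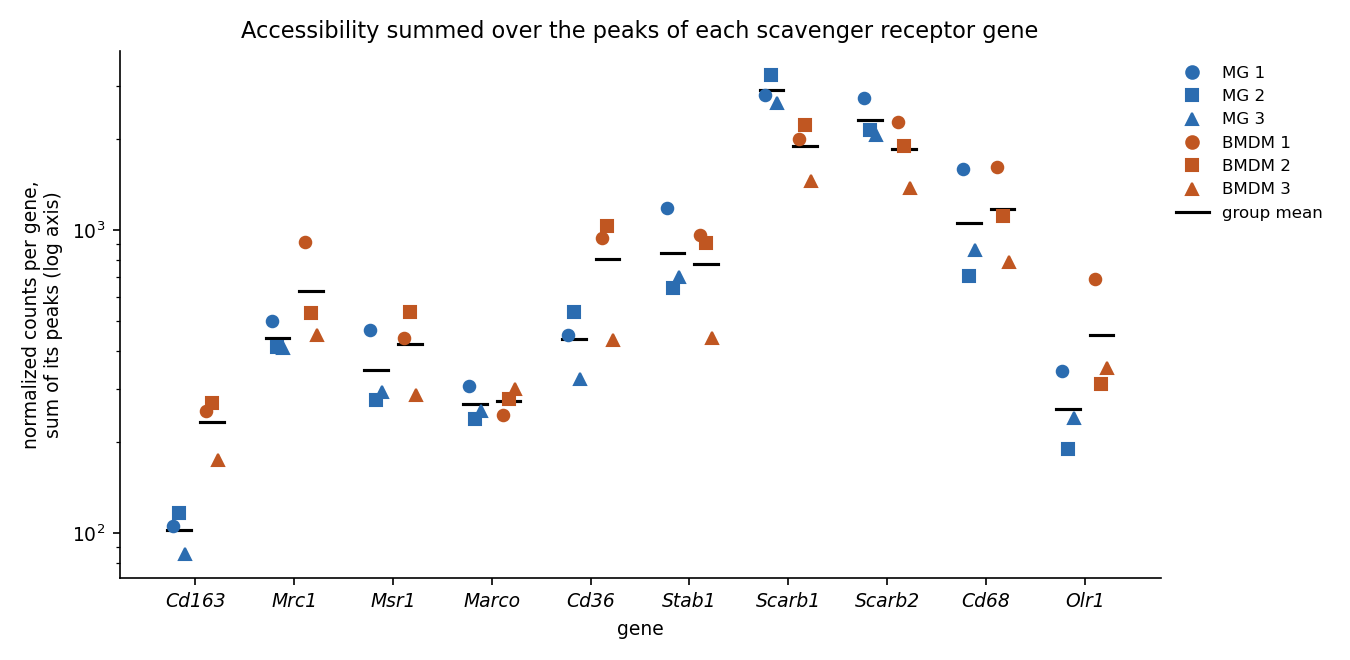
Normalized counts summed over the peaks of each gene, on a log axis, for the 3 MG and 3 BMDM libraries, with a bar at each group mean. All BMDM values of Cd163 (174 to 269) lie above its MG values (85.5 to 116), those of Scarb1 lie below its MG values, and the groups of the other genes overlap.

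Cd163 binds haptoglobin-haemoglobin complexes and takes them up for haem breakdown. It lies at chr6:124304636-124330529 (ENSMUSG00000008845) and had 3 peaks. The mean of the gene was 232 ± 51.2 in BMDM, against 102 ± 15.7 in MG (SD, n = 3 each). It rose in BMDM by 1.43 ± 0.32 (SE), with an adjusted p of 0.0489 by limma. The call rested on every library of both groups but MG 1 and 2. Adjusted p was 0.228 without MG 3, 0.198 without BMDM 1, 0.245 without BMDM 2 and 0.0534 without BMDM 3, with differences of 1.35 to 1.53 over all 6 omissions. With voom it was 0.0609, and with no filter on low genes 0.0504.

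None of the 3 Cd163 peaks was called by itself, although all 3 had positive differences. The largest was an intergenic peak at chr6:124273072-124273753, 31.2 kb upstream of the RefSeq start, with 92.8, 87.5 and 62.2 normalized counts in MG and 184, 197 and 92.4 in BMDM. Here BMDM 3 fell just under MG 1, so the groups touched. That peak held 53.1% to 88.0% of the counts of the gene. A smaller intergenic peak at chr6:124297238-124297588, 7.2 kb upstream, had 7.14, 11.5 and 4.86 counts in MG and 45.6, 36.3 and 19.9 in BMDM. Its difference of 2.11 ± 0.55 did not pass (limma adjusted p = 0.0580), and all BMDM libraries lay above all MG libraries. The third peak, at chr6:124321453-124321906, lies inside the gene 17.0 kb past the RefSeq start, where the table places the start of another transcript. As the sole promoter-class peak of Cd163 it had 5.55, 17.5 and 18.5 counts in MG and 23.8, 36.3 and 61.6 in BMDM (1.85 ± 0.64 on the promoter scale, limma adjusted p = 0.100). Beside these values, the sums of the border associated macrophage list, 1630 to 2022 in MG and 1775 to 3473 in BMDM, overlapped between the groups, no tested gene of the list was at 0 in any library, and its part in the Cd163 difference was not tested. In these bulk libraries a different mix of cells and a different accessibility per cell cannot be told apart.

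Mrc1, the mannose receptor CD206, takes up glycoproteins with exposed mannose and spans chr2:14229414-14332023. Its 11 peaks summed to 503, 413 and 407 normalized counts in MG and to 913, 533 and 449 in BMDM. The groups overlapped only through MG 1, which exceeded BMDM 3. The difference of 0.72 ± 0.30 did not pass (limma adjusted p = 0.402). Along the gene the peaks were unlike one another, with differences from -0.66 to 3.76, and 9 of 11 were above the median peak. The largest peak, in intron 15 at chr2:14295173-14296046, went the other way, with 134, 122 and 118 counts in MG and 83.3, 100.4 and 65.2 in BMDM (-0.46 ± 0.30, adjusted p = 0.254). Its groups did not overlap.

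A peak in exon 16 of Mrc1, at chr2:14303954-14304315, had the largest difference of all 78 peaks. It held 0.793, 3.28 and 0 normalized counts in MG and 47.6, 11.01 and 23.6 in BMDM. MG 1 and MG 3 lay under the level of 3 reads, and each BMDM library lay above every MG library. The difference of 3.76 ± 1.01 did not pass (limma adjusted p = 0.0587), and it shrank to 2.35 with a pseudocount of 5, where it passed (adjusted p = 0.0431). Further into the gene, the peak of intron 25 had 7.93, 10.4 and 14.6 counts in MG and 137, 12.95 and 47.1 in BMDM, with overlapping groups. The 3 promoter-class peaks of Mrc1 summed to 103, 55.8 and 68.0 in MG and to 218, 107 and 90.6 in BMDM (1.12 ± 0.38, adjusted p = 0.167). The table gives 3 more peaks within the Mrc1 body to Mir511, a microRNA of an Mrc1 intron, and they are outside the 78. One of these, at chr2:14279240-14279532, averaged 9.71 counts in MG and 69.5 in BMDM (limma adjusted p = 0.0264), while the largest, at chr2:14249776-14250502, averaged 137 and 112 (adjusted p = 0.683).

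Msr1 and Marco are collagenous class A receptors. Msr1 binds acetylated and oxidized low density lipoprotein and Marco binds bacteria and particles. The Msr1 gene (chr8:39543232-39642750) had 467, 275 and 292 normalized counts over its 7 peaks in MG and 442, 538 and 286 in BMDM, with overlap of the groups (0.56 ± 0.32, limma adjusted p = 0.625). Its promoter-class peaks alone, 2 in number, gave 29.4, 36.6 and 26.2 counts in MG and 101, 136 and 59.8 in BMDM. Every BMDM value there exceeded every MG value. The promoter sum rose in BMDM by 1.90 ± 0.45 (99.0 ± 38.1 against 30.7 ± 5.33 counts, SD, n = 3 each, limma adjusted p = 0.00672).

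This was the 1 promoter called higher in BMDM among 8 members with a promoter peak, against 2.75% of 15249 promoters tested, and 0 of 8 were higher in MG, against 9.16%. At an unadjusted p under 0.05, BMDM was higher at 4 promoters and MG at 0, against 4.95% and 18.1% of all promoters, and voom called the same counts as limma. The variance shared between promoters took nearly all the weight in this fit, so the p hardly uses the spread of Msr1 itself. The Msr1 call was lost without MG 3 (adjusted p = 0.0996), without BMDM 1 (0.0688), without BMDM 2 (0.153) and when the promoter was limited to peaks within 1 kb of a start (0.291, where Olr1 passed with 0.0187). Over the 8 promoters the median difference was 0.78, and 7 lay above the median promoter.

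The called peaks of Msr1 lay near its start. At chr8:39644319-39644968, 1.9 kb upstream, a promoter-class peak had 18.2, 21.9 and 12.6 counts in MG against 77.4, 90.7 and 32.6 in BMDM, and rose by 1.91 ± 0.46 (limma adjusted p = 0.0481). In intron 1, 6.6 kb past the start at chr8:39635798-39636478, the counts were 7.93, 16.9 and 13.6 in MG and 47.6, 55.7 and 30.8 in BMDM, a rise of 1.88 ± 0.45 (adjusted p = 0.0484). In both peaks all BMDM libraries exceeded all MG libraries. Neither was called with loess, with voom or without a filter. With a minimum mean of 30 the upstream peak was not called, and the intron 1 peak fell below that minimum and was not tested. With library totals and with a pseudocount of 5, 2 Msr1 peaks were called. The peak over the start itself, at chr8:39642644-39643006, differed by 1.31 ± 0.45 without passing (adjusted p = 0.135), and its groups did not overlap either. The largest Msr1 peak, at exon 5 (chr8:39619616-39620716), had 318, 125 and 166 counts in MG and 208, 219 and 96.0 in BMDM, a difference of -0.06 ± 0.44 (adjusted p = 0.822). The other 3 peaks lay between -0.39 and 0.57.

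**Figure D2:**
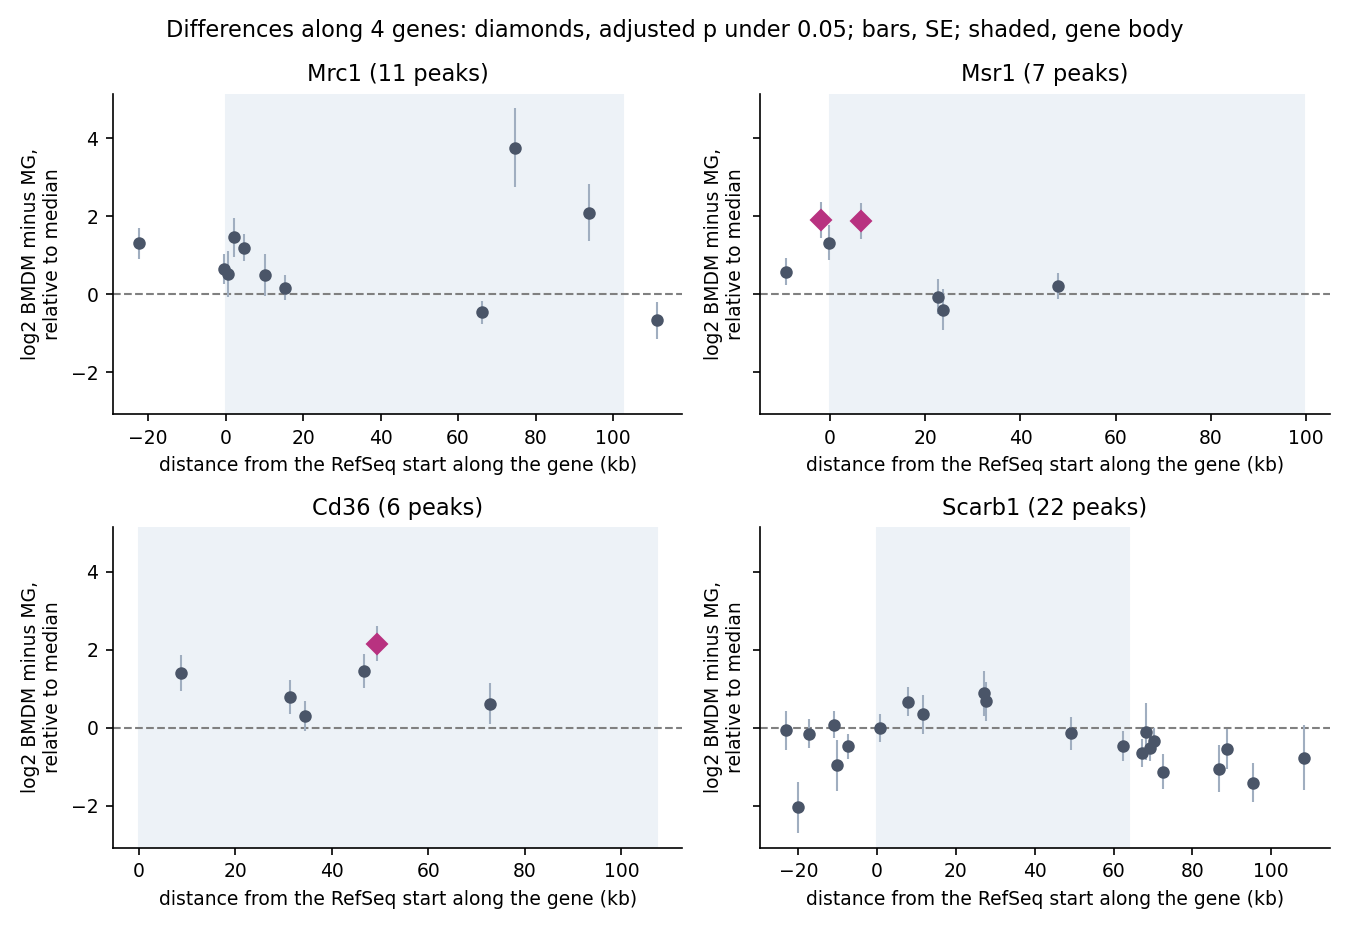
Log2 difference of each peak, BMDM minus MG and relative to the median peak, against the distance of its centre from the RefSeq start, for Mrc1, Msr1, Cd36 and Scarb1 (bars, SE; diamonds, adjusted p under 0.05; shaded, the gene body). The called Msr1 peaks sit 1.9 kb before and 6.6 kb after the start, while those of Scarb1 outside the gene body lie mostly below 0.

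The promoter-class peaks held 6.28%, 13.3% and 9.0% of the Msr1 counts in MG 1, 2 and 3 and 22.9%, 25.3% and 20.9% in BMDM. These shares need no scaling between libraries, and the groups did not overlap. The test of the promoter against the other peaks of the same gene gave 1.78 ± 0.40, as a shift from the median gene, which did not pass (limma adjusted p = 0.0688). It passed without MG 2 (adjusted p = 0.0494). None of the 6 members with both kinds of peak passed that test, against 4.26% of 10734 genes. At an unadjusted p under 0.05 there were 2, Msr1 and Scarb1, against 23.3% of all genes, and voom called 0.

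**Figure D3:**
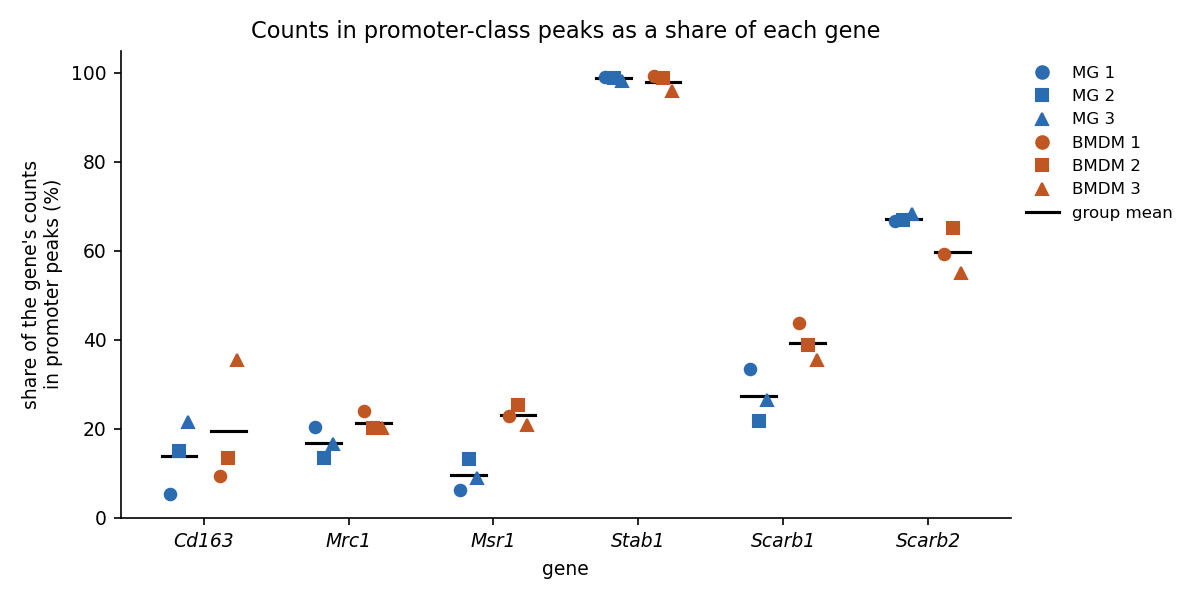
Share of the counts of a gene that lay in its promoter-class peaks, in percent, for the 6 genes with both promoter-class and other peaks, by library, with a bar at each group mean. The BMDM shares of Msr1 (20.9% to 25.3%) and of Scarb1 (35.4% to 43.9%) lie above its MG shares (6.28% to 13.3% and 21.8% to 33.5%).

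Marco (chr1:120474538-120505024) had no peak in its body, and its 10 peaks were all intergenic, with the one nearest to the start 12.5 kb upstream of it. They summed to 307, 238 and 253 counts in MG and to 246, 276 and 299 in BMDM, which overlapped (0.31 ± 0.28, limma adjusted p = 0.939). The peaks differed among themselves, with 5 above and 5 below the median peak. The largest, at chr1:120532317-120533092 and 27.7 kb upstream, had 48.4, 42.1 and 34.0 counts in MG and 75.4, 79.6 and 79.7 in BMDM (1.05 ± 0.31, adjusted p = 0.101), with no overlap. In the opposite direction the peak 12.8 kb upstream had 79.3, 54.7 and 60.3 in MG and 41.7, 44.0 and 39.9 in BMDM, also without overlap.

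Cd36, a receptor for long-chain fatty acids and oxidized lipoprotein, spans chr5:17781690-17888959. Its 6 peaks, all in introns, summed to 452, 538 and 323 normalized counts in MG and to 944, 1034 and 435 in BMDM. BMDM 3 fell among the MG values, and the difference of 1.08 ± 0.34 did not pass (limma adjusted p = 0.179). It passed with loess (0.0287) and without BMDM 3 (0.0432). Among the peaks, 1 in intron 1 at chr5:17839347-17839982 had the smallest p of all 78. Its counts were 21.4, 47.0 and 22.4 in MG against 153, 164 and 65.2 in BMDM, and it rose by 2.16 ± 0.46 (128 ± 54.2 against 30.3 ± 14.5, SD, n = 3 each, adjusted p = 0.0348). No library of one group reached the other.

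The 250-base Cd36 run printed above precedes a RefSeq start inside the gene. That Cd36 peak begins 3.45 kb upstream of this inner start, and no peak covered the run. The figures measure instead from the start at the outer end of the gene span, and place the centre of the peak 49.3 kb past it. The neighbouring intron 1 peak at chr5:17842148-17842599 had 14.3, 34.4 and 21.4 counts in MG and 41.7, 85.5 and 50.7 in BMDM (1.46 ± 0.44, limma adjusted p = 0.0943). The largest Cd36 peak, at chr5:17854251-17854951, held 194, 205 and 142 in MG and 268, 263 and 114 in BMDM, with overlap (0.31 ± 0.39, adjusted p = 0.822). All 6 peaks were above the median peak, from 0.31 to 2.16.

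Olr1 (LOX-1) is a lectin-like receptor for oxidized low density lipoprotein at chr6:129479150-129507350. Its 3 peaks, all of the promoter class, summed to 344, 189 and 240.0 normalized counts in MG and to 690.3, 310.2 and 351 in BMDM, a difference of 1.02 ± 0.34 (limma adjusted p = 0.215). MG 1 lay within the BMDM range. The peak over the start, at chr6:129506821-129507676, covers the AP-1 match of the printed run and had 83.3, 45.9 and 64.1 counts in MG and 279.7, 84.8 and 129 in BMDM (1.34 ± 0.45, adjusted p = 0.13). All BMDM values there exceeded the MG values, by least for BMDM 2 against MG 1. The largest peak, at chr6:129494704-129495588 and 12.2 kb into the gene, had 198, 102 and 127 in MG and 289.6, 166 and 161 in BMDM (0.66 ± 0.37, adjusted p = 0.413). Without MG 1 the gene passed (adjusted p = 0.0231), in a fit where the shared variance took nearly all the weight. That fit called 746 of 18497 genes higher in BMDM and 2327 higher in MG.

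Scarb1, the receptor for high density lipoprotein that takes up cholesteryl esters, was the member with the most peaks, 22, and the largest sum. It spans chr5:125277087-125341094. The sums were 2786, 3257 and 2637 normalized counts in MG and 1999.6, 2225 and 1453 in BMDM. The groups did not overlap, yet the difference of -0.36 ± 0.32 did not pass (limma adjusted p = 0.265). Within the gene body its 7 peaks summed to 1139, 808 and 807 in MG and 988, 995 and 599.6 in BMDM, which overlapped. The 15 peaks outside the body summed to 1647, 2449 and 1829.96 in MG and to 1012, 1230.3 and 853 in BMDM, without overlap, and 1 of them was above the median peak. The 5 promoter-class peaks held 33.5%, 21.8% and 26.5% of the counts in MG and 43.9%, 38.9% and 35.4% in BMDM. The test of promoter against other peaks gave 1.05 ± 0.25 and did not pass (adjusted p = 0.110), although it did without MG 1 (0.0407).

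The start of Scarb1 held its largest peak, chr5:125339131-125341415, with 838, 645 and 646 counts in MG and 811, 774 and 417 in BMDM. Its difference was 0.00 ± 0.35 on the log2 scale (limma adjusted p = 0.843). The lowest difference of all 78 peaks was that of chr5:125360644-125361774, 20.1 kb upstream and outside the RefSeq gene, with 52.4, 482 and 238 counts in MG and 37.7, 47.9 and 34.4 in BMDM. MG 1 was close to BMDM 2 there, and MG 2 was far above every other library. The difference of -2.04 ± 0.66 did not pass (adjusted p = 0.0742). It was -2.98 without MG 1 (adjusted p = 9.0e-11, in a fit where the shared variance had more weight) and -1.39 without MG 2 (0.0391). Beyond the 3′ end of Scarb1, chr5:125245122-125246328 had 162, 551 and 371 counts in MG and 135, 159 and 61.6 in BMDM (-1.41 ± 0.50, adjusted p = 0.0884).

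In 8 of the 22 Scarb1 peaks, or 36.4%, MG 2 exceeded MG 3 and MG 3 exceeded MG 1, against 35.0% of all 87925 peaks tested and 19.2% of the 78. In the same 8 peaks MG 2 also had more than 2 times the count of MG 1, against 25.6% of all peaks and 16.7% of the 78. Over the 22 Scarb1 peaks together, the order MG 2, MG 3, MG 1 was about as frequent as over all peaks. All 8 peaks with it lay among the 15 outside the gene body, and no peak within the body had it. The summed markers of neural, glial and tumour cells were 12431 in MG 2, 8145 in MG 3 and 6150 in MG 1, and no tested gene of that list was at 0 in a library. Their part in the Scarb1 values was not tested.

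**Figure D4:**
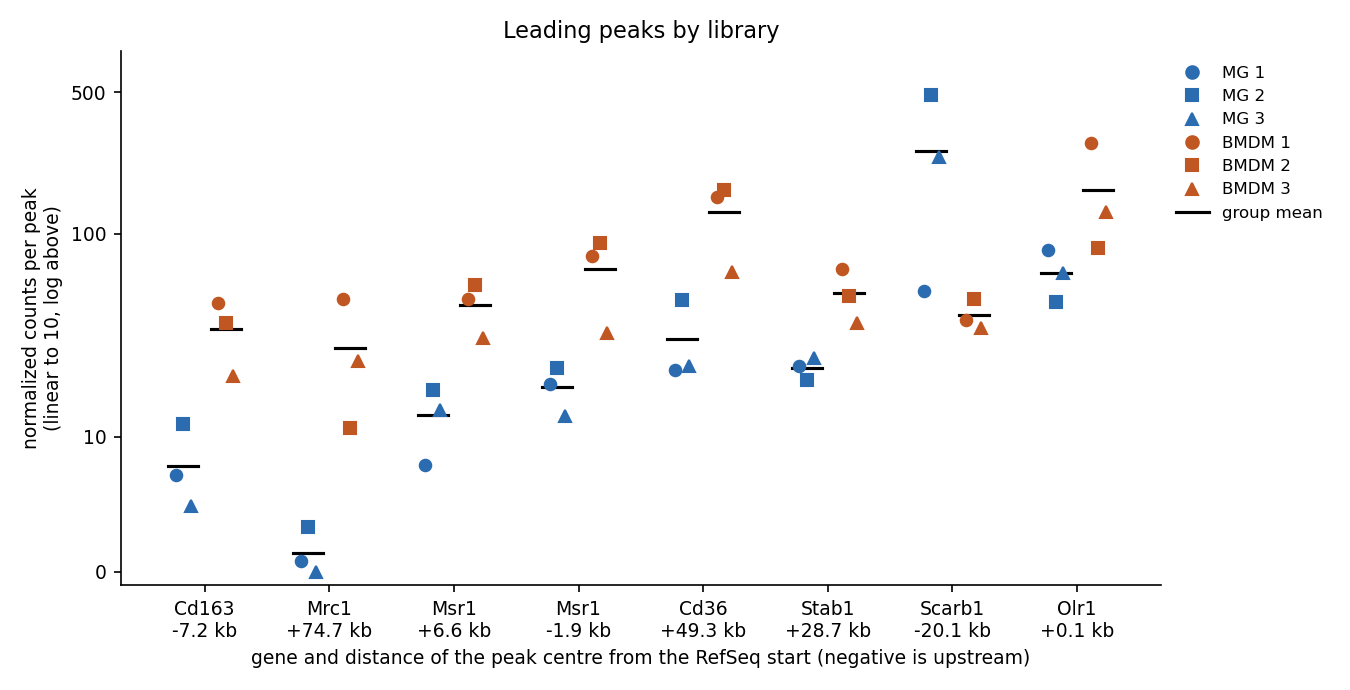
Normalized counts of 8 leading peaks in each library (linear to 10, log above), each named by its gene and the distance of its centre from the RefSeq start, with a bar at each group mean. Shown are the 3 called peaks and the smallest-p peak of Cd163, Mrc1, Scarb1, Olr1 and Stab1. Separate groups thus follow in part from the choice, and peaks of Marco, Scarb2 and Cd68 are not shown. In the Scarb1 peak MG 1 (52.4) sits near the BMDM libraries and MG 2 (482) far above them, whereas in the other 7 peaks every BMDM value lies above every MG value.

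Stab1 (stabilin-1), an endocytic receptor that clears modified lipoprotein and extracellular SPARC, spans chr14:31139017-31168651. Its 5 peaks summed to 1181, 644 and 703 normalized counts in MG and to 964, 907 and 440.2 in BMDM, with overlap (0.11 ± 0.34, limma adjusted p = 0.818). The 4 promoter-class peaks held 95.9% to 99.4% of these counts (0.15 ± 0.34 on the promoter scale, adjusted p = 0.804). The largest, at chr14:31165890-31166741, had 634, 265 and 305 in MG and 460.2, 409 and 163 in BMDM (-0.11 ± 0.47, adjusted p = 0.787). A small promoter-class peak 28.7 kb past the RefSeq start, near the 3′ end, stood out from the rest with 22.2, 19.1 and 24.3 counts in MG and 67.4, 49.2 and 36.2 in BMDM. Its groups did not overlap, and its difference of 1.28 ± 0.38 did not pass (adjusted p = 0.0920). The other 3 peaks lay between -0.45 and 0.29.

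Cd68, a heavily glycosylated protein of late endosomes and lysosomes, and Scarb2 (LIMP-2), which sorts glucocerebrosidase to the lysosome, are the lysosomal members. Per kilobase of peak, Cd68 had the highest level of the 10 genes, 970 normalized counts in MG and 1079.8 in BMDM. Scarb2 came next in MG with 306, close to Stab1 at 297, while Stab1 at 272 stood before Scarb2 at 246 in BMDM, and the pair did not differ beyond the spread of their libraries. In MG they were followed by Scarb1 (192), Cd36 (131), Olr1 (125), Msr1 (80.2), Cd163 (68.9), Mrc1 (67.7) and Marco (55.1). In BMDM the levels per kilobase were 239.8 for Cd36, 219 for Olr1, 156 for Cd163, 126 for Scarb1, 98.3 for Msr1, 97.0 for Mrc1 and 56.8 for Marco, so Cd163 stood above Scarb1 there. The single Cd68 peak, chr11:69665645-69666729, lies over the start and covers the printed run with its AP-1, C/EBP and CCAAT matches. It held 1591, 705 and 861 counts in MG and 1613, 1116 and 786 in BMDM. The highest library of each group was replicate 1, the groups overlapped widely, and the difference was 0.32 ± 0.41 on the peak scale (limma adjusted p = 0.823), 0.45 as a gene and 0.50 as a promoter.

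Scarb2 (chr5:92441311-92505657) summed to 2722, 2139 and 2058 normalized counts in MG and to 2273, 1899.8 and 1375 in BMDM over 10 peaks (-0.07 ± 0.32, limma adjusted p = 0.562). Its CpG-rich start lay under the peak with the largest mean in MG of all 78, chr5:92504244-92506687, with 1813, 1432 and 1404 counts in MG and 1347, 1238 and 757 in BMDM. MG values exceeded all BMDM values, and the difference did not pass (-0.37 ± 0.35, adjusted p = 0.413, and -0.20 ± 0.40 on the promoter scale, 0.473). An intron 1 peak at chr5:92493314-92493795 had 15.1, 119 and 57.3 counts in MG and 9.92, 14.2 and 29.0 in BMDM (-1.36 ± 0.70, adjusted p = 0.216), again with MG 2 the highest and MG 1 within the BMDM range. Without MG 1 it passed (adjusted p = 6.3e-05). The other 8 peaks lay between -0.09 and 0.95.

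Over all 78 peaks, 3 were called higher in BMDM, the intron 1 peak of Cd36 and the pair of Msr1 peaks, against 5.33% of 87925 peaks tested. Higher in MG were 0, against 1.54%. The share of called members, 3 of 78, was thus not above the share of all peaks. At an unadjusted p under 0.05, BMDM was higher at 18 and MG at 3, against 15.3% and 9.59% of all peaks, and voom called 0 peaks. Each of the 3 peaks had an adjusted p of 0.114 to 0.235 without MG 3, BMDM 1 or BMDM 2, where limma called 0 of all peaks (14430, 15864 and 14809 at an unadjusted p under 0.05). The groups did not overlap in 17 member peaks higher in BMDM and 8 higher in MG, against 17.0% and 12.9% of all peaks. The median difference of the 78 was 0.13, with 45 above the median peak, against 50.0% of all. In the authors' deposited table, fitted with their own model, 10 of the 78 had an adjusted p under 0.05 and a higher value in BMDM and 2 a higher value in MG, against 9.06% and 5.38% of 92842 peaks. The 10 were 4 peaks of Mrc1, 2 each of Msr1 and Cd36 and 1 each of Cd163 and Olr1, and the 2 were peaks of Scarb1.

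**Figure D5:**
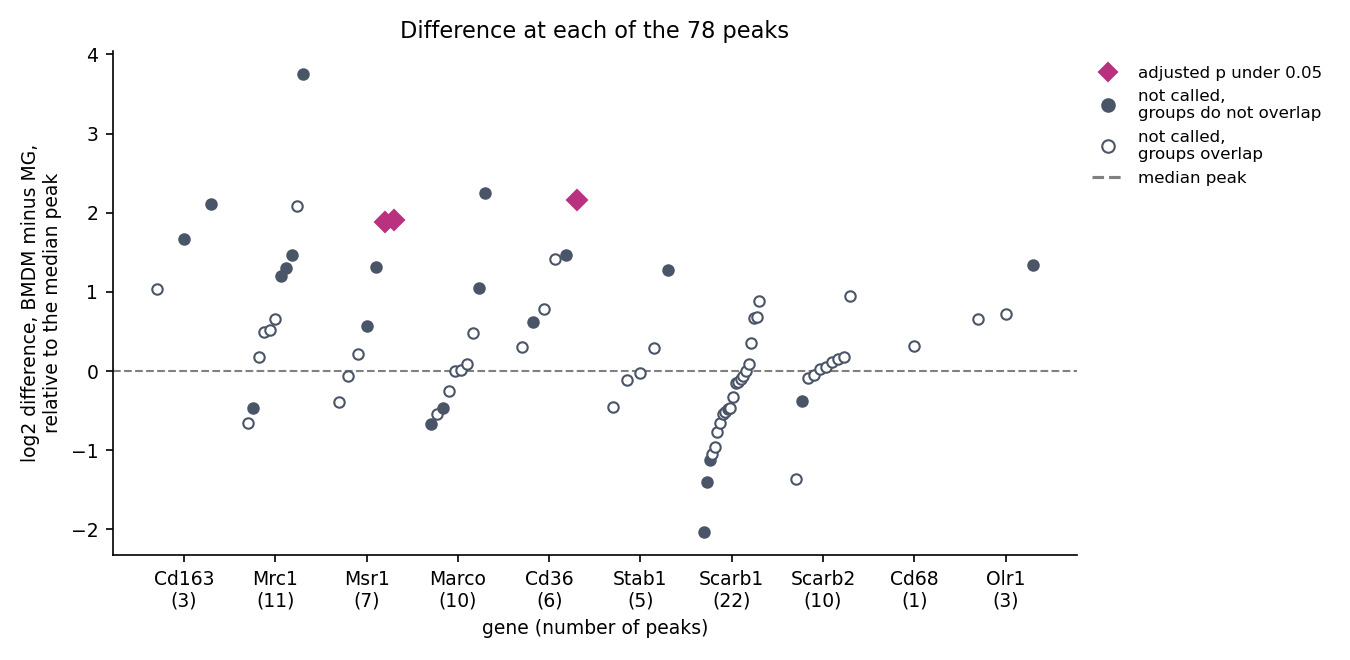
Log2 difference of each of the 78 peaks, BMDM minus MG and relative to the median peak (dashed line), by gene (diamonds, adjusted p under 0.05; filled circles, not called and groups not overlapping; open circles, groups overlapping). The 3 called peaks belong to Msr1 and Cd36, all peaks of Cd163, Cd36, Cd68 and Olr1 lie above 0, and 17 of the 22 Scarb1 peaks lie below it.

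By annotation class the 20 promoter-class peaks had a median difference of 0.66 (14 above the median peak, 1 called), the 29 intronic peaks 0.21 (18 above, 2 called), the 6 exonic peaks -0.02 and the 23 intergenic peaks -0.05 (10 above). These classes follow the transcripts of the authors' table. Some intronic and exonic peaks given to Scarb1, and an intronic peak given to Mrc1, lie outside the RefSeq gene body. No values over all peaks of a class stand beside these, so they only describe the members. Several promoter-class peaks, such as those of Cd163, Stab1, Scarb1 and Olr1 named here or counted, lie at starts of shorter transcripts within the gene. The deposited peak lists, called per library, held 40, 48 and 40 of the 78 peaks in MG 1, 2 and 3, against 32, 48 and 13 in BMDM 1, 2 and 3. These lists differ in length, from 17741 peaks in BMDM 3 to 70739 in MG 2, so absence from BMDM 3 says little. Of the 78 peaks 12 were in all 6 lists and 11 in none, against 16.8% and 8.64% of the peaks in the table. The upstream Msr1 peak was in 2 BMDM lists and 0 MG lists, the Msr1 intron 1 peak likewise, the called Cd36 peak in 2 BMDM lists and 1 MG list (MG 2), and the upstream Scarb1 peak at 20.1 kb in 2 MG lists and 0 BMDM lists.

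The partners of these receptors had 0 or 1 called genes per list, against 1.83% of all genes higher in BMDM and 2.94% in MG. A list of this size with 1 call says little about the list. Of 20 tested genes of lipoprotein and lipid droplet handling 1 was higher in BMDM, the fatty acid binding protein gene Fabp4, with 19.8, 48.6 and 31.1 normalized counts in MG and 101, 108 and 87.0 in BMDM (1.90 ± 0.43, limma adjusted p = 0.0425). Its groups did not overlap. Of 14 genes of haemoglobin and haem handling 1 was higher in BMDM, haptoglobin (Hp), whose complex with haemoglobin Cd163 binds, with 28.6, 49.2 and 34.0 in MG and 139, 209.8 and 116 in BMDM (2.29 ± 0.39, adjusted p = 0.0122). Hp also stands in the list of bone marrow macrophage markers. Both lists had 0 genes called higher in MG by limma and by voom. At an unadjusted p under 0.05 there were 1 and 2 higher in MG, against 15.3% of all genes. Higher in BMDM at that threshold were 2 and 1, against 6.29%. Voom called Hp and not Fabp4. The medians of the 2 lists were 0.32 and 0.10.

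Among 24 other scavenger receptors tested (Lyve1 is also in the border associated list), limma and voom called 0 in either direction. At an unadjusted p under 0.05, 3 were higher in BMDM and 2 in MG, against 6.29% and 15.3% of all genes. The smallest p was that of Megf10, an engulfment receptor (-0.49 ± 0.28, limma adjusted p = 0.132). The 16 lysosomal genes, 13 signalling genes and 15 transcription factors also gave 0 calls in either direction by limma and by voom. Unadjusted p lay under 0.05 for 1 lysosomal gene higher in MG, 2 signalling genes higher in BMDM and 0 factors, against the same shares. Their smallest p belonged to Cd63 (-0.37 ± 0.29, adjusted p = 0.220), the tyrosine kinase gene Syk (1.21 ± 0.39, 0.172) and Cebpa (-0.20 ± 0.36, 0.480). The medians of these 4 lists ran from 0.16 to 0.42 relative to the median gene, against 0.50 for the 10 receptor genes.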

How the data were processed

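Groups, replicate numbers and sort gates were taken from the labels. Per the labels' protocols, tagmentation of lysed cells with a Nextera Tn5 kit was followed by PCR. The submitters' processing notes name the build mm10 and the tools DESeq2 1.36.0 and ChIPseeker 1.32.1, cutadapt 1.8.1 for trimming, Bowtie2 2.4.1 and MACS2 2.1.1.20160309. The handling of duplicates and of the transposase offset is not stated in the labels.

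In the deposited table each library column is on a log2 scale after a variance-stabilizing transformation by the authors. The authors' deposited table also gives a mean normalized signal, an adjusted p-value and a log2 fold change per peak. The deposited peak lists give the authors' fold enrichment and −log10 p and q per peak, used only to describe peaks within a list. Of 93084 lines, 155 repeated a peak and 86 distinct peaks had no symbol. A further 8 per-sample columns could be tied to no sample of the series and stayed unused.

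The transformation was inverted, and the resulting normalized counts matched the deposited mean of each peak within a relative 2.4e-06. Multiplied by size factors they were whole reads within 0.02 read for 99.9989% of the values of BMDM 2 and for all values of the other libraries. The planned count test was replaced by its stated alternative, since the deposited values are normalized: limma 3.58.1 (R 4.3.3) with a trend, on log2(normalized count + 1), over features with a mean of at least 10. All 78 member peaks, 10 genes and 8 promoters passed that filter. This scale makes the change of low features look smaller than it is. The script was tested on simulated data. The members, gene lists and naming rule (all members, with their sums, largest, called and smallest-p peaks) were chosen with earlier results of these data known. Coordinates are those of the table (mm10); gene bodies and promoter bases come from RefSeq (GRCm38.p6). Alternatives were library totals, loess, voom, other pseudocounts and filters, robust moderation, a replicate block, other peak windows and leaving out each library. Libraries with the same replicate number correlated at 0.549, -0.178 and 0.447 in their deviations from the group means. Those with unlike numbers correlated at -0.604 to 0.564. Deviations sum to 0 within a group of 3, so these values cannot decide whether the numbers pair. The labels do not say so either, and the numbers were not taken as pairs.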

Additional observations from a re-analysis of the deposited data

How the results depend on the processing

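Of 101 recomputed counts, 73 stayed within 1.5 times the value reported, and these include counts of 0 that stayed at 0. A count could also stay while the members behind it changed, as with loess, whose 2 called peaks were of Cd36 and Mrc1. The cause of the 28 changed counts was not tested, beyond fewer libraries or features where these were left out. Member peaks called higher in BMDM numbered 8 with library totals, 0 with voom and 1 with a minimum of 30. When single libraries were left out they numbered 0 to 13, and those higher in MG 0 to 8. Over all 87925 peaks, 7032 were called higher in BMDM with library totals and 0 with voom. A minimum of 30 gave 3475 of 59225, beside 1 of 52 members. Leaving out single libraries gave 0 to 10605 of all peaks higher in BMDM and 0 to 11274 higher in MG. Member genes called higher in BMDM numbered 2 with loess, 0 with voom, 0 without a filter and 0 to 2 over omissions. Over all genes these settings gave 1096, 245, 339 and 0 to 746, of 18497 tested or 18755 without a filter. Member promoters numbered 2 with loess and 0 to 3 over omissions, and member genes whose promoter differed from the other peaks 0 to 1. Of all 15249 promoters, loess called 752 higher in BMDM and omissions 154 to 503. The promoter comparison over omissions called 0 to 139 of 10734 genes to the side of BMDM and 0 to 519 to that of MG. The replicate block gave 11 member peaks higher in BMDM and 3 higher in MG, with 3 genes and 2 promoters higher in BMDM. Over all features it called 9214 of 87925 peaks higher in BMDM and 5216 in MG. Of 18497 genes it called 948 and 2347, and of 15249 promoters 539 and 2044, in the same order. In its gene and promoter fits the shared variance took nearly all the weight. The labels do not say whether replicate numbers pair the libraries, and no more is read from the block. Of the single differences 19 changed sign, each in a value that did not pass the test. The largest Scarb1 peak gave 0.0011 with library totals, 0.21 with loess, 0.0209 with voom, 0.0621 with a minimum of 30, and -0.19 to 0.25 over omissions. The largest Msr1 peak gave 0.0664 with loess, 0.0053 with a minimum of 30 and -0.40 to 0.27 over omissions, and the largest Stab1 peak 0.068 with loess and -0.40 to 0.30. The Stab1 gene ran from -0.0493 to 0.32, its promoter minus other peaks from -0.56 to 0.54 and that of Cd163 from -0.0834 to 1.31. With as few as 4913267 reads in peaks in BMDM 3, peaks of a few reads are limited by counting error.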
